A study of Homo sapiens with 6 samples.

Results

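The genes described are 7 members of the small heat shock protein family, HSPB1, CRYAB (also called HSPB5), HSPB2, HSPB3, HSPB6, HSPB7 and HSPB8. They were taken by symbol, and all 7 were found among the 19475 gene symbols of the deposited table. RNA was sequenced from MH7A cells, a fibroblast line from the joint lining in rheumatoid arthritis. In the TNF plus LED group (replicates 4, 6 and 10) cells received TNFα at 10 ng/ml and 3 exposures of 15 min each to a red 630 nm LED. In the TNF group (replicates 2, 8 and 14) cells received TNFα at 10 ng/ml alone. All 6 libraries thus had TNFα and came from 1 cell line, and cells without TNFα were not analysed here.

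Small heat shock proteins are chaperones that work without ATP. They hold partly unfolded proteins in a soluble state until the ATP-driven HSP70 machine refolds them or passes them on for breakdown. They share a central alpha-crystallin domain, assemble into oligomers of changing size, and protect the actin and intermediate filament cytoskeleton. HSPB1, CRYAB and HSPB8 are known as stress-inducible members made in many tissues, HSPB6 is abundant in muscle, and HSPB2, HSPB3 and HSPB7 are best known from skeletal muscle and heart.

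Genes of the family that answer to heat are switched on by the factor HSF1, which binds inverted repeats of the letters GAA in promoters. The start regions of HSPB1 and HSPB8, whose transcripts rose, are shown with that of HSPB6, whose transcript did not pass the test. Each runs 5′ to 3′ from 250 bases before to 50 bases after the annotated start, and capitals mark each inverted pair, GAANNTTC or TTCNNGAA, searched on both strands. Sequences are from RefSeq on GRCh38.p14, at chr7:76302423-76302722 on the plus strand for HSPB1, chr12:119178681-119178980 on the plus strand for HSPB8 and chr19:35756980-35757279 on the minus strand for HSPB6.
HSPB1: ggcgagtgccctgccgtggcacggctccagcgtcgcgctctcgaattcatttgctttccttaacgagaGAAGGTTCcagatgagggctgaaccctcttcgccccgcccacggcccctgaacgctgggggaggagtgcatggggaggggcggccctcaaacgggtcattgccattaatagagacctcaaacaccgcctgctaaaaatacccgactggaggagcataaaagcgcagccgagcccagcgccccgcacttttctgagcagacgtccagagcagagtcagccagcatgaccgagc
HSPB8: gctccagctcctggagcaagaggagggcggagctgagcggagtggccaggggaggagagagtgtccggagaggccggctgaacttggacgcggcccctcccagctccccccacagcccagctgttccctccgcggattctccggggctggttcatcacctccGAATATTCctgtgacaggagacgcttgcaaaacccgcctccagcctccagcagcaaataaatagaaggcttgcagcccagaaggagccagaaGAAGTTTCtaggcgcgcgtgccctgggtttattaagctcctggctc
HSPB6: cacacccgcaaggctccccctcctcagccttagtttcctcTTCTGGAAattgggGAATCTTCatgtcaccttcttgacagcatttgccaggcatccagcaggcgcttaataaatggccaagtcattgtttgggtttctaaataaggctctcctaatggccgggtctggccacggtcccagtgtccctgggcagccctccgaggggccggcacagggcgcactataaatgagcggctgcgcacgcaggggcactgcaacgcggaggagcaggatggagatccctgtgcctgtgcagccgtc

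The HSPB1 window holds 1 inverted pair, which begins 182 bases before the start. HSPB8 holds 2, beginning 88 bases before and 4 bases after the start. HSPB6 also holds 2, beginning 210 and 196 bases before the start. All these distances count from the RefSeq start. In GENCODE, used below for gene positions, the genes begin elsewhere, at 76302544 (HSPB1), 119178642 (HSPB8) and 35758079 (HSPB6, minus strand). By those positions the HSPB8 and HSPB6 windows lie inside the genes, so the distances depend on the start chosen. Of the other members, HSPB3 has 1 pair at the far end of its window and HSPB7 has none, and RefSeq windows matched 5 of the 7 members, without CRYAB and HSPB2. Either pair occurs in 13.5% of the 35116 promoter windows in the table. The longer run of 3 units, GAANNTTCNNGAA or TTCNNGAANNTTC, which overlaps both pairs, occurs in 0.490% of windows and in none of the 5 members' windows. In these RefSeq windows the matched letters are therefore found in members that rose and in members that did not pass. Windows placed by the GENCODE starts were not searched.

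Deposited totals were 94615430 to 108074289 estimated counts in the TNF plus LED libraries and 86000253 to 107139947 in the TNF libraries. Low values piled up at multiples of 4, so a sequenced fragment appeared to be worth about 4 of these units, and the totals would correspond to about 21500063 to 27018572 fragments. TNF plus LED replicate 6 and TNF replicate 8 stood apart from their groups. Chi-square per degree of freedom was 27.9 between TNF plus LED replicates 4 and 10 and 28.0 between TNF replicates 2 and 14, against 76.9 to 136 for pairs within a group that held one of the libraries standing apart. All 10 fibroblast markers were above 0, with a summed level of 25817 to 27448 CPM, the estimated count relative to the TMM-scaled library total, with TNF plus LED and 30298 to 32306 CPM with TNF. The groups did not overlap in that sum, no single marker passed the test, and the part of this difference in the results was not tested. Of 12 markers of skeletal and cardiac muscle, 9 stayed at or under 3 fragments in all 6 libraries and MYOD1, MYOG, MYF5 and MYH2 were at 0. Their sum, most of it TTN, was 10.3 to 12.9 CPM with TNF plus LED and 3.49 to 11.8 CPM with TNF. ACTC1 had 0.604, 0.964 and 1.69 CPM in TNF plus LED replicates 4, 6 and 10. In TNF replicates 2, 8 and 14 it had 0.215, 0.315 and 0.208 CPM. The groups did not overlap for ACTC1, which did not pass the test.

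Transcripts of HSPB1, CRYAB and HSPB8 were 4.25-fold, 16.4-fold and 3.84-fold higher in cells given TNFα and LED light than in cells given TNFα alone. Those of HSPB2, HSPB3, HSPB6 and HSPB7 did not pass the test, and no member fell. All 7 members passed the filter on low counts. The test was edgeR's quasi-likelihood test with Benjamini-Hochberg adjustment over all 13794 genes tested, and an adjusted p under 0.05 counted as passing. Under that rule 3 of the 7 members were higher and 0 lower, beside 2.44% higher, 2.73% lower and 5.17% in either direction among all genes tested. No member was lower at an unadjusted p under 0.05, and DESeq2 and limma-voom also called 3 members higher and 0 lower. In RNA from whole cultures, more transcript per cell and more cells carrying it cannot be told apart.

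**Figure D1:**
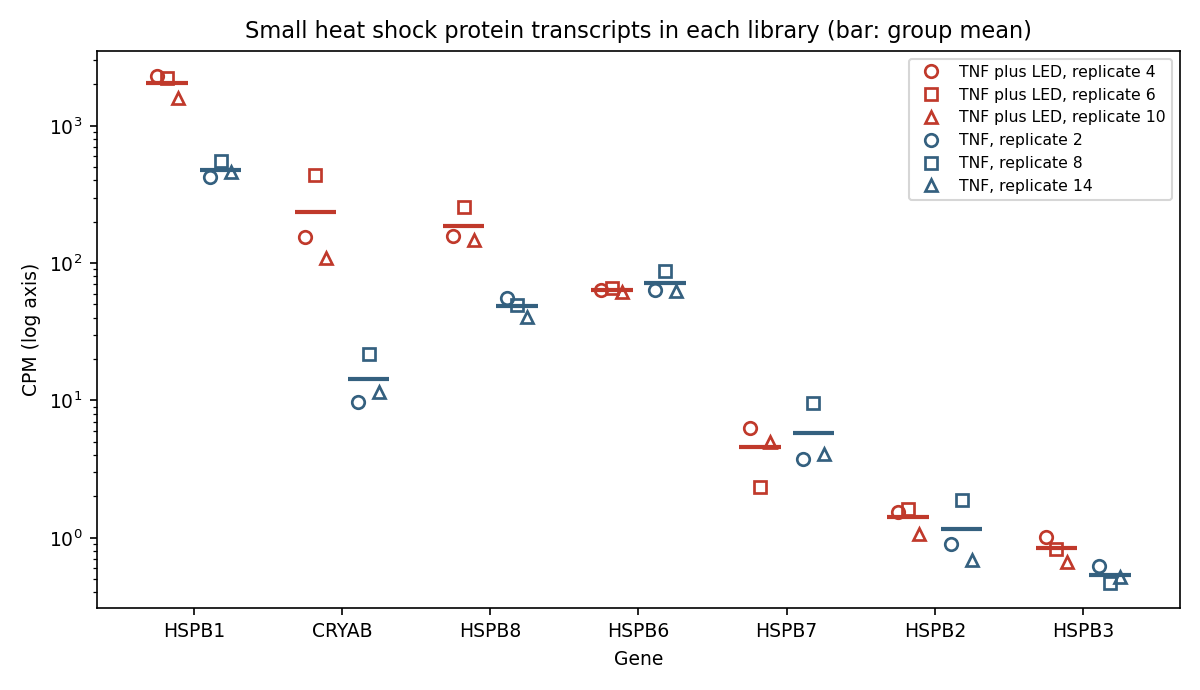
Level of each member in every library, in CPM on a log axis, with TNF plus LED libraries in red and TNF libraries in blue; short bars are group means of 3 libraries. The red and blue points are fully separated for HSPB1, CRYAB, HSPB8 and HSPB3, and they overlap for HSPB6, HSPB7 and HSPB2.

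HSPB1, known as HSP27, is the general small heat shock protein of most cell types and binds actin as well as unfolding clients. It had 2301, 2220 and 1588 CPM in TNF plus LED replicates 4, 6 and 10, against 424, 554 and 459 CPM in TNF replicates 2, 8 and 14. Each TNF plus LED library lay well above every TNF library, and replicate 10 was the lowest of the exposed libraries. The group means were 2036 ± 390 CPM with TNF plus LED and 479 ± 67.3 CPM with TNF (SD, n = 3 each). The log2 fold change was 2.09 ± 0.21 (SE, edgeR adjusted p = 0.00278), the 14th lowest p of all genes tested. HSPB1 lies on chromosome 7, from 76302544 to 76304295 on the plus strand of GRCh38 in GENCODE 29. Of the 50-base words in its transcripts 5.84% also occur in its pseudogenes HSPB1P1 and HSPB1P2, so a small share of its count could be divided with them.

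CRYAB encodes alpha-B-crystallin, a major protein of the eye lens and of muscle that also guards the filaments of desmin and vimentin. It had 156, 441 and 110 CPM in TNF plus LED replicates 4, 6 and 10. In TNF replicates 2, 8 and 14 it had 9.78, 21.6 and 11.6 CPM. The groups did not overlap, and within each group the library that stood apart was the highest. Means were 235 ± 179 CPM with TNF plus LED and 14.3 ± 6.39 CPM with TNF (SD, n = 3 each), and the log2 fold change was 4.04 ± 0.55 (SE, edgeR adjusted p = 0.00858). By the size of its increase CRYAB ranked 67th of the genes tested, HSPB1 270th and HSPB8 312th. Without TNF plus LED replicate 6 the log2 fold change of CRYAB was 3.21 (edgeR adjusted p = 0.0274), and without both libraries that stood apart it was 3.64 (0.00266).

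HSPB8, known as HSP22, pairs with the co-chaperone BAG3 to carry damaged proteins towards autophagy. It had 159, 256 and 147 CPM in TNF plus LED replicates 4, 6 and 10, against 56.1, 49.2 and 40.7 CPM in TNF replicates 2, 8 and 14. The groups were separated, with replicate 6 the highest. Means were 187 ± 60.0 CPM with TNF plus LED and 48.7 ± 7.73 CPM with TNF (SD, n = 3 each). The log2 fold change was 1.94 ± 0.25 (SE, edgeR adjusted p = 0.00637). No 50-base word of its transcripts was shared with another gene in GENCODE 29.

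HSPB6, or HSP20, is a target of the cyclic nucleotide kinases and relaxes smooth muscle when phosphorylated. Its levels were 63.3, 65.9 and 61.4 CPM in TNF plus LED replicates 4, 6 and 10, against 63.3, 87.6 and 62.4 CPM in TNF replicates 2, 8 and 14. Apart from TNF replicate 8, all libraries lay within a narrow range, and the groups overlapped. The log2 fold change was -0.16, with a 95% interval of -0.58 to 0.26 (edgeR adjusted p = 0.658), and 0.02 without TNF replicate 8. An antisense gene covers part of HSPB6, and 32.6% of its 50-base words lie in that antisense transcript. No source used here states whether the counting used strand, so reads of the pair may be mixed.

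HSPB7, a cardiovascular member that binds filamin C, had 6.29, 2.34 and 5.02 CPM in TNF plus LED replicates 4, 6 and 10. In TNF replicates 2, 8 and 14 it had 3.75, 9.55 and 4.08 CPM. The lowest and the highest value belonged to TNF plus LED replicate 6 and TNF replicate 8, the libraries that stood apart, and the groups overlapped. The log2 fold change was -0.35, with a 95% interval of -1.34 to 0.64 (edgeR adjusted p = 0.691). It was 0.22 without TNF replicate 8 and 0.53 without both libraries, so no direction is given.

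HSPB2 and HSPB3 form a complex with each other in muscle, and both were near the lower end of detection. HSPB2 had 1.54, 1.62 and 1.07 CPM in TNF plus LED replicates 4, 6 and 10, against 0.897, 1.87 and 0.692 CPM in TNF replicates 2, 8 and 14. These values overlap and rest on about 15 to 48 fragments per library, and the log2 fold change was 0.29 with a 95% interval of -0.69 to 1.27 (edgeR adjusted p = 0.743). HSPB3 had 1.02, 0.825 and 0.664 CPM in TNF plus LED replicates 4, 6 and 10, against 0.628, 0.472 and 0.519 CPM in TNF replicates 2, 8 and 14. All exposed libraries were above all TNF libraries, on about 11 to 27 fragments each, and the log2 fold change was 0.63 with a 95% interval of -0.36 to 1.62 (edgeR adjusted p = 0.439). Counting HSPB3, 4 of the 7 members had higher groups that did not overlap, beside 16.2% of all genes tested.

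HSPB2 and CRYAB lie beside each other on opposite strands of chromosome 11. In GENCODE 29 HSPB2 runs from 111912242 to 111914093 and CRYAB, with its longest forms, from 111908565 to 111923722, so that 626 of the 1335 exon bases of HSPB2 are also exon bases of CRYAB. Of the 50-base words in their transcripts, 54.7% for HSPB2 and 13.4% for CRYAB also occur in another gene. The gene HSPB2-C11orf52, which overlaps both, shares words with each. Counts of HSPB2 are therefore uncertain, and a smaller share of the CRYAB count could be mixed. The measured ratio of HSPB2 to CRYAB counts was 0.00988, 0.00368 and 0.00973 in TNF plus LED replicates 4, 6 and 10, against 0.0917, 0.0864 and 0.0596 in TNF replicates 2, 8 and 14. It was lower in every exposed library, with a mean log2 difference of -3.46 (TNF plus LED minus TNF). CRYAB rose while HSPB2 did not pass.

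**Figure D2:**
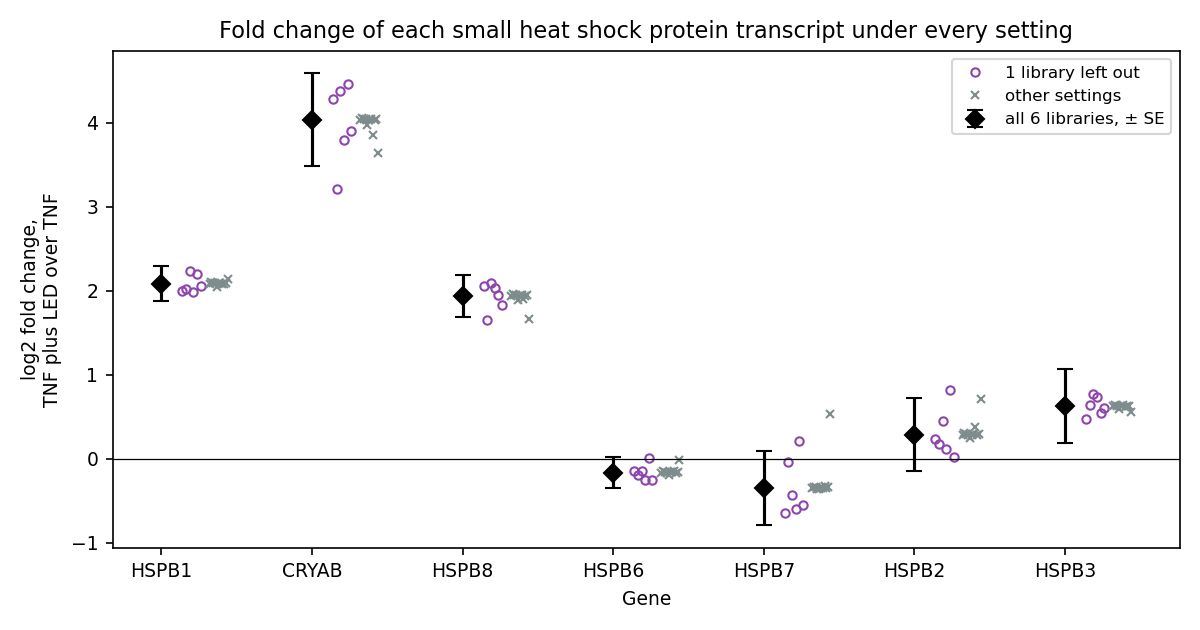
Log2 fold change of each member, TNF plus LED over TNF. Black diamonds with bars give the fit to all 6 libraries ± SE, purple circles the fits with 1 library left out, and grey crosses the other settings; every value for HSPB1, CRYAB and HSPB8 lies between 1.65 and 4.46, whereas values for HSPB6 and HSPB7 fall on both sides of 0.

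The members differed in level as well as in change. Levels between genes were compared as CPM per kilobase of annotated exons. HSPB1 led the family in both groups, with 1246 ± 239 per kilobase with TNF plus LED and 293 ± 41.2 with TNF (SD, n = 3 each). With TNF plus LED it was followed by CRYAB (77.6 ± 59.1), HSPB8 (65.4 ± 21.0) and HSPB6 (36.9 ± 1.33), while HSPB7, HSPB3 and HSPB2 had about 1 CPM per kilobase each. With TNF the next were HSPB6 (41.3 ± 8.32), HSPB8 (17.0 ± 2.70) and CRYAB (4.73 ± 2.11), and the 3 scarce members followed with means of 0.688 to 1.48 CPM per kilobase.

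In the exposed cells the ranges of CRYAB and HSPB8 overlapped, as did those of CRYAB and HSPB6. HSPB6 and HSPB8 were separated in both groups, in opposite orders. The ranges of the 3 scarce members overlapped with one another in the exposed cells. With TNF, HSPB2 overlapped with both others, and HSPB7 lay above HSPB3. With the longest transcript as the length, CRYAB stood at 210 ± 160 CPM per kilobase with TNF plus LED and 12.8 ± 5.71 with TNF, and the order of the group means was the same, but CRYAB no longer overlapped with HSPB6 in the exposed cells. Of the summed level per kilobase of the 7 members, CRYAB took 3.30%, 8.89% and 3.30% in TNF plus LED replicates 4, 6 and 10, against at most 1.70% in any TNF library. HSPB6 took 2.34% to 3.25% with TNF plus LED and 10.7% to 12.2% with TNF. HSPB1 made up 83.1% to 90.5% with TNF plus LED and 80.7% to 83.3% with TNF, and these ranges overlap, as they do with the longest transcript (73.1% to 85.8% and 78.0% to 80.9%).

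Ratios within a library do not depend on scaling, and 6 pairs were compared, chosen after the counts were seen. CRYAB relative to HSPB1 was at 0.0676, 0.199 and 0.0691 in TNF plus LED replicates 4, 6 and 10, against 0.0231, 0.0391 and 0.0253 in TNF replicates 2, 8 and 14. CRYAB thus gained on HSPB1 in every exposed library, with a mean difference of 1.78 on the log2 scale. HSPB8 relative to HSPB1 was at 0.0690, 0.115 and 0.0923 with TNF plus LED, against 0.132, 0.0888 and 0.0886 with TNF, and these overlap. Here the log2 difference was -0.17 (exact permutation test, two-sided p = 0.7). The smallest p that 3 libraries against 3 allow is 0.1. The other 5 pairs reached it, at 0.12 after adjustment over the 6 pairs, so no pair could pass a threshold of 0.05.

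**Figure D3:**
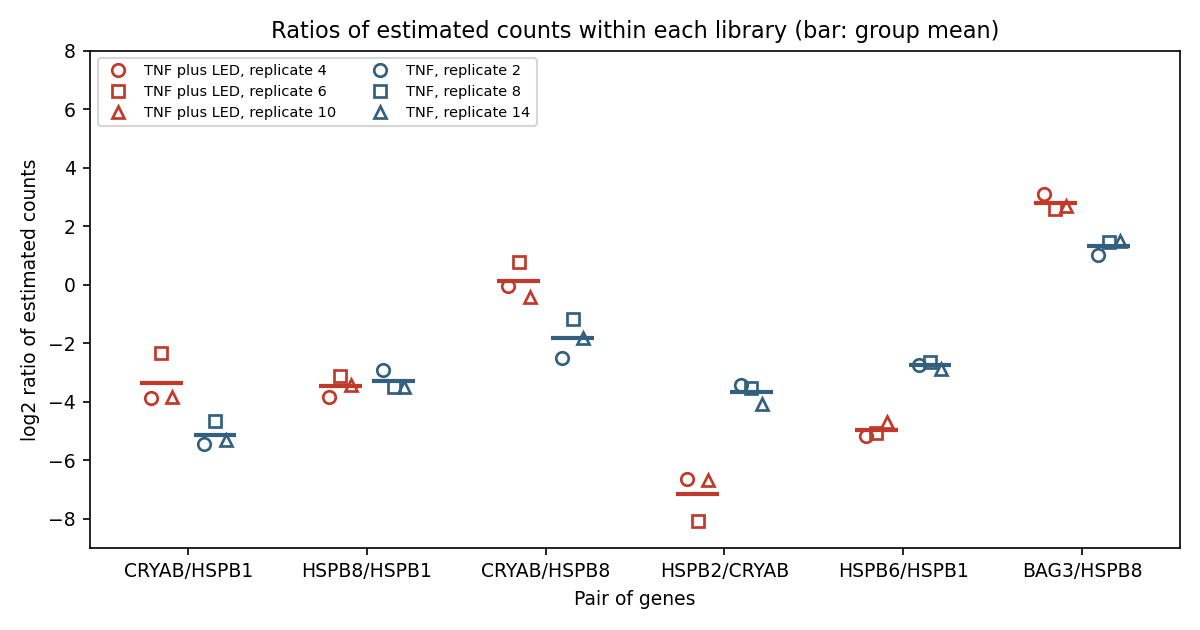
Log2 ratio of estimated counts for each of 6 pairs of genes within every library, with TNF plus LED in red and TNF in blue; short bars are group means of 3 libraries. The groups overlap for HSPB8/HSPB1 and are separated for the other 5 pairs.

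The ATP-driven machine that takes over clients from small heat shock proteins rose with them. Of 21 tested genes of the HSP70 machine 13 rose, 0 fell and 8 did not pass. Among all genes tested 2.44% were called higher and 2.73% lower. The median log2 fold change of the 21 was 1.47, beside 0.01 for all genes tested. For the 7 small heat shock members the median was 0.63, the value of HSPB3, which did not pass. At an unadjusted p under 0.05, 2 of the 21 were lower by edgeR, and DESeq2 called 1 and limma-voom 0 lower. Genes of the HSP70 machine were already known to rise in these data, so its direction is no independent support for the members. DNAJA4, a J-domain co-chaperone, was at 19.6 ± 0.912 CPM with TNF plus LED and 0.131 ± 0.0975 CPM with TNF (SD, n = 3 each; log2 fold change 7.18). Its TNF level rests on 27, 6 and 8 units in replicates 2, 8 and 14, the last pair below the 12 units worth 3 fragments, and the log2 fold change was 8.00 without TNF replicate 2. The HSP110 genes HSPH1 and HSPA4L, which release nucleotide from HSP70, rose by 4.19 and 4.50 on the log2 scale (edgeR adjusted p = 0.00122 for both).

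BAG3, the partner of HSPB8, had 1348, 1556 and 939 CPM in TNF plus LED replicates 4, 6 and 10, against 113, 136 and 115 CPM in TNF replicates 2, 8 and 14. The groups were far apart, with a log2 fold change of 3.40 ± 0.23 (SE, edgeR adjusted p = 0.000689). The ratio of BAG3 to HSPB8 counts was 8.49, 6.08 and 6.40 in the exposed libraries, against 2.02, 2.77 and 2.82 in the TNF libraries. BAG3 thus gained on HSPB8 by 1.46 on the log2 scale. BAG3 also belongs to the HSP70 list, as do HSPA8 and DNAJB6 from the autophagy genes described next.

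Other genes of the autophagy route served by HSPB8 and BAG3 mostly did not pass after adjustment, like most genes tested. Of all genes tested 2.44% were called higher and 2.73% lower. Among the 15 tested genes of this list 1 rose (BAG3), 1 fell and 13 did not pass, with a median of 0.05. The one that fell was HDAC6, a deacetylase that brings aggregates to the cell centre, with a log2 fold change of -0.78 ± 0.17 (SE, edgeR adjusted p = 0.0364). It no longer passed when TNF replicate 14 or any 1 TNF plus LED library was omitted (edgeR adjusted p up to 0.164). FLNC, the filamin that is a client of this route and a partner of HSPB7, was at 1633 ± 260 CPM with TNF plus LED and 899 ± 222 CPM with TNF (SD, n = 3 each; edgeR adjusted p = 0.0555). It passed in 7 of 17 alternatives, among them DESeq2 (adjusted p = 0.00368) and the fit without TNF replicate 8 (edgeR adjusted p = 0.0329), and the adjusted p reached 0.194 without TNF replicate 14. MAP1LC3B, which coats autophagosomes, had a log2 fold change of 0.56 (edgeR adjusted p = 0.0939). In this list 3 members were called higher without TNF replicate 8, and DESeq2 called 6. At an unadjusted p under 0.05 by edgeR, 6 of the 15 were higher and 3 lower. Among all 13794 genes tested 3129 were under that p in either direction. Groups did not overlap for 7 of the 15 (higher) and 3 (lower), beside 16.2% of all genes tested in each direction. In the higher direction the share was thus larger in this list than among all genes tested. BAG3, HSPA8 and DNAJB6, which the HSP70 list also holds, are among those 7.

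Kinases of the routes that phosphorylate small heat shock proteins mostly did not pass. The list also holds the p38 kinases MAPK11, MAPK12, MAPK13 and MAPK14, some of which act upstream in such a route. Of 14 tested, 0 rose, 2 fell and 12 did not pass (median -0.12), and none was higher at an unadjusted p under 0.05 or with DESeq2 or limma-voom. Beside the 2.44% of all genes called higher, a count of 0 in 14 is near the background, and 2.73% of all genes were called lower. Without both libraries that stood apart 1 kinase was called higher. PRKG1, a cyclic GMP kinase that acts on HSPB6, was at 23.0 ± 5.46 CPM with TNF plus LED and 56.1 ± 21.4 CPM with TNF (SD, n = 3 each; edgeR adjusted p = 0.0464). MAPK12, a stress-activated kinase, fell by 0.69 on the log2 scale (edgeR adjusted p = 0.0455). Neither call held without TNF replicate 2, TNF replicate 14 or any 1 TNF plus LED library, where 0 members were called lower. AKT1, which binds HSPB1, and MAPK11 had log2 fold changes of -0.59 and -0.50 without passing (edgeR adjusted p = 0.0954 and 0.279). AKT1 passed in 1 of 17 alternatives. Of the 14 kinases 3 were lower at an unadjusted p under 0.05 by edgeR, 3 with DESeq2 and 1 with limma-voom.

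Transcripts of the heat shock factors and of HSBP1 did not pass the test. HSF1, HSF2, HSF4 and HSBP1, a factor-binding protein, had log2 fold changes of -0.05, -0.13, 0.16 and -0.01. Of these 4 genes 0 rose and 0 fell by edgeR, DESeq2 or limma-voom, and 0 were below an unadjusted p of 0.05. Beside the 2.44% of all genes tested called higher and 2.73% called lower, 0 in 4 is near the background. HSF4 rests on 48 to 153 units per library, with a 95% interval of -0.94 to 1.26. HSF1 is controlled mainly through its protein, which RNA does not show.

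Intermediate filament genes, some of whose proteins are clients of CRYAB and HSPB1, were tested in 8 of 10 cases. Of these 0 rose, 1 fell and 7 did not pass, with a median of -0.13. Among all genes tested 2.44% were called higher and 2.73% lower. In the filament list 1 was higher at an unadjusted p under 0.05 by edgeR, 1 by DESeq2 and 0 by limma-voom. LMNB1, a lamin of the nuclear envelope, fell to 19.4 ± 6.14 CPM with TNF plus LED, against 53.0 ± 16.3 CPM with TNF (SD, n = 3 each; edgeR adjusted p = 0.0313). This call was lost without any 1 library but TNF replicate 2 (edgeR adjusted p up to 0.110), where 0 filament genes were called lower. Synemin (SYNM), lamin B2 (LMNB2) and keratin 8 (KRT8) had log2 fold changes of 0.63, -0.81 and 0.35 without passing. SYNM passed in 2 of 17 alternatives and LMNB2 in 1. The muscle filament gene DES, the main partner of CRYAB in muscle, and GFAP did not reach the filter.

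**Figure D4:**
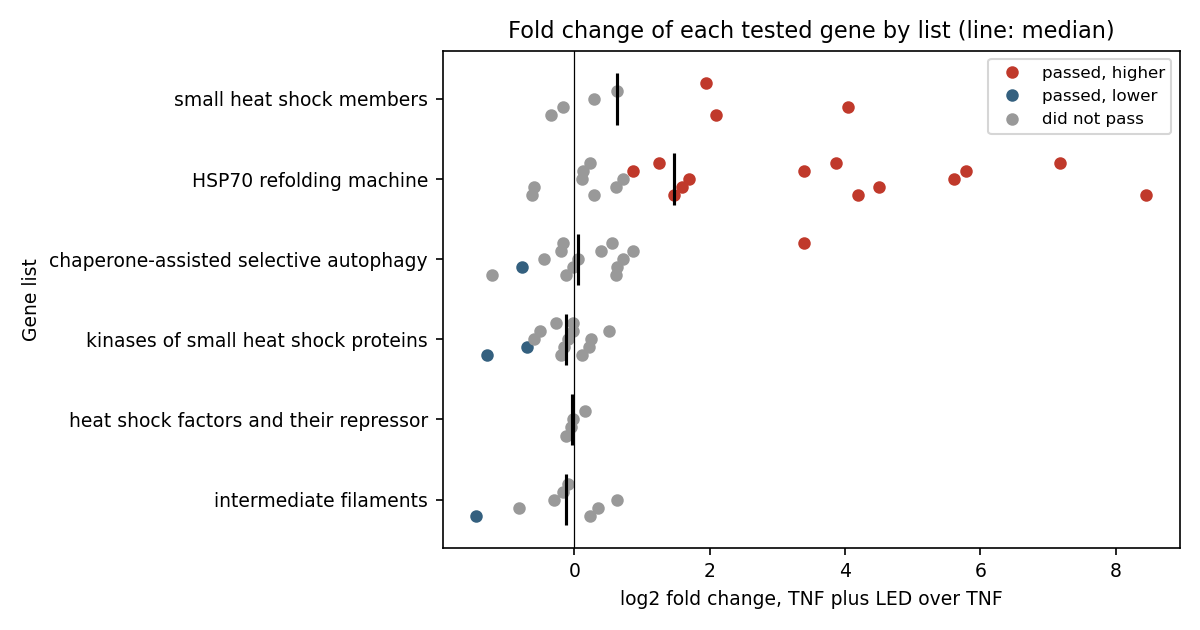
Log2 fold change, TNF plus LED over TNF, of each tested gene in the small heat shock family and 5 related lists, with red for genes that passed higher, blue for lower and grey for those that did not pass; vertical lines are list medians. The HSP70 machine has 13 red points and the small heat shock family 3, whereas the kinase list has 2 blue points and the heat shock factors have grey points alone.

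Further genes, 4 in all, are grouped with the family by name or sequence. Only 1 of them, HSPB11, reached the test, and it did not pass. Among all genes tested 2.44% were called higher and 2.73% lower. CRYAA, the lens partner of CRYAB, and ODF1, a sperm tail protein, were at 0 in all 6 libraries, which allows up to 3 fragments each (0.108 to 0.138 CPM, counting error only). HSPB9, known from testis, had about 4, 4 and 2 fragments in TNF plus LED replicates 4, 6 and 10 and 2, 0 and 1 in TNF replicates 2, 8 and 14, too few for a comparison. HSPB11, a part of the intraflagellar transport machinery, had 14.5, 17.2 and 14.0 CPM in TNF plus LED replicates 4, 6 and 10. In TNF replicates 2, 8 and 14 it had 19.9, 21.3 and 19.1 CPM. The groups did not overlap, as for 16.2% of all tested genes in the lower direction, and the log2 fold change of -0.40 did not pass (edgeR adjusted p = 0.202, and 0.0486 without both libraries that stood apart). HSPB11 was lower at an unadjusted p under 0.05, and neither DESeq2 nor limma-voom called any of the 4 higher or lower.

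The genes whose pattern was most like each member's were found from the root mean square difference between their log2 CPM deviations over the 6 libraries. For HSPB1 these were FBXL14, a subunit of ubiquitin ligases (0.09), CACYBP, a calcyclin-binding protein (0.11), and HSPE1, the mitochondrial co-chaperonin (0.17). CACYBP had 308, 353 and 236 CPM in TNF plus LED replicates 4, 6 and 10, against 72.3, 87.5 and 70.8 CPM in TNF replicates 2, 8 and 14. For HSPB8 they were AMIGO3 (0.12), LRRC70 (0.15) and TRIML2 (0.18). AMIGO3, a membrane adhesion protein, had 24.2, 42.6 and 21.2 CPM in TNF plus LED replicates 4, 6 and 10, against 10.6, 8.29 and 6.94 CPM in TNF replicates 2, 8 and 14.

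CRYAB had no equally close match, on differences that were not scaled to the size of a gene's change. Its nearest were HRK (0.33), a death-promoting BCL2 family gene, SHISA7 (0.39) and DNAJB1 (0.39), the J-domain partner of inducible HSP70. HRK and SHISA7 rest on few counts, with 32 to 74 and 15 to 59 units in the TNF plus LED libraries, against 0 to 4 units and 0 units in the TNF libraries. DNAJB1 had 1485, 2368 and 691 CPM in TNF plus LED replicates 4, 6 and 10, against 111, 122 and 80.1 CPM in TNF replicates 2, 8 and 14, so that it shared the peak in replicate 6. HSPB6 was matched to within 0.03 by MRPL4, STUB1, the ubiquitin ligase that works with HSP70 and BAG3, and CDK5RAP1. The nearest were UQCC3, HYAL3 and LY6K for HSPB2 (0.16 to 0.18), ZNF717, PPARGC1B and BCL10 for HSPB3 (0.08 to 0.09) and C15orf59 and DEF6 for HSPB7 (0.17 and 0.23). Within the family HSPB1 and HSPB8 were closest to each other (0.30), and CRYAB was 1.05 from HSPB1, its nearest relative.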

How the data were processed

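Per the labels' protocols, libraries came from total RNA without ribosomal RNA, with random primers. Tools listed without a role in the submitters' processing notes are HISAT2, StringTie, limma, DESeq2 and bcl2fastq 2.0. The notes give the mouse build mm10 although the samples are human, and the human build and strand setting are not given. The deposited table holds estimated counts as whole numbers, which needed no rounding. Of values from 1 to 7, 67.2% were 4 or 5.

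TNF plus LED (n = 3) was compared with TNF (n = 3) by edgeR 4.0.16 in R 4.3.3 (filterByExpr, TMM, robust quasi-likelihood, two-sided, Benjamini-Hochberg, threshold 0.05). The procedure was also run on simulated counts drawn separately for each gene and library. Those counts held no libraries that stood apart, so they do not show how the test behaves with such libraries. Intervals of 95% use edgeR's moderated degrees of freedom, and the SE is the log2 fold change over the root of F. Alternatives were DESeq2 1.42.0, limma-voom 3.58.1, other filters and scalings, and libraries left out. Members, lists and libraries in doubt were chosen with earlier results of these data known. Named genes are the members, up to 4 of lowest p per list, and the 3 nearest in pattern to each member, of which 1 is not reported here. GENCODE 29 (GRCh38) gave lengths and overlaps. Nothing states that replicates are separate cultures, and a p-value then reflects only the spread among these samples, which may be technical.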

Additional observations from a re-analysis of the deposited data

How the results depend on the processing

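HSPB1, CRYAB and HSPB8 stayed called higher in all 17 alternatives, with log2 fold changes of 1.99 to 2.24, 3.21 to 4.46 and 1.65 to 2.09, and the largest adjusted p was 0.0385, for CRYAB without TNF replicate 14. No other member was called in any of them. HSPB6 lay between -0.25 and 0.015 and HSPB7 between -0.64 and 0.22 with 1 library left out, and HSPB7 was at 0.53 without both libraries that stood apart. Counts over all genes depended on the libraries and the tool. With 1 library left out 59 to 314 genes were higher and 21 to 423 lower, and without both libraries that stood apart 763 were higher and 906 lower. DESeq2 called 846 higher and 811 lower. Of the autophagy list 1 to 3 were higher and 0 to 1 lower with 1 library left out, 4 were higher without both libraries, 6 with DESeq2, and 2 with no filter, limma-voom, non-robust dispersions or counts divided by 4. Of the kinases 0 to 2 were lower with 1 library left out, 1 with library totals or limma-voom and 3 with DESeq2. Without both libraries 1 kinase was higher. Of the filament genes 0 to 1 were lower with 1 library left out, 2 with DESeq2, and 1 was higher with DESeq2 or without both libraries. DESeq2 and the fit without both libraries each called 1 gene of the HSP70 machine lower. Without both libraries HSPB11 was called lower, 1 of its list.

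Genes that changed sign did so without ever passing. With 1 library left out the log2 fold changes spanned -0.22 to 0.41 for HSF4, -0.21 to 0.12 for HSF1, -0.13 to 0.076 for HSBP1, -0.11 to 0.61 for LY6K, -0.24 to 0.061 for MRPL4, -0.25 to 0.051 for CDK5RAP1, -0.57 to 0.25 for C15orf59 and -0.42 to 0.54 for DEF6. Without both libraries that stood apart they were -0.53, 0.047, 0.031, 0.046, 0.59 and 0.84 for HSF4, HSF1, MRPL4, CDK5RAP1, C15orf59 and DEF6. HSBP1 was at 0.0043 with a minimum of 1 CPM and DEF6 at 0.019 with limma-voom. The log2 ratio of HSPB8 to HSPB1 was -0.44 without both libraries and spanned -0.34 to 0.026 with 1 library left out. The cause of these differences was not tested. No paired analysis was possible because the groups share no replicate numbers. HSPB2 and HSPB3 rest on 11 to 48 fragments a library, which limits what could be detected.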
